A study of Mus musculus with 12 samples.

Results

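Genes of oxidative phosphorylation were followed in whole pancreatic tumours from mice that received chow with or without an inhibitor of CSF1R, the colony-stimulating factor 1 receptor. They were chosen by symbol: every probe whose gene symbol begins Nduf followed by a, b, c, s or v and a digit, is Sdha, Sdhb, Sdhc or Sdhd, begins Uqcr, begins Cox4 to Cox8 followed by a letter, or begins Atp5. The rule found 118 probes of 78 genes among the 34885 probes and 19057 genes that carry a single symbol on the array. By complex these were 34 genes of complex I, 4 of complex II, 7 of complex III, 17 of complex IV and 16 of complex V. Ndufa4, named as a complex I subunit but found with complex IV, was placed in complex IV. Ndufs5-ps, which the symbol rule also takes in, is a pseudogene of a complex I subunit.

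Oxidative phosphorylation takes place in the inner mitochondrial membrane. Complex I accepts electrons from NADH and complex II from succinate, complex III passes them from ubiquinol to cytochrome c, and complex IV passes them to oxygen. Complexes I, III and IV pump protons across the membrane, and complex V, the ATP synthase, uses the returning protons to make ATP. Most subunits are encoded in the nucleus and a smaller set in mitochondrial DNA, and the symbol rule takes in nuclear genes.

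The series holds 12 Illumina BeadArrays of 9 tumours, 4 labelled Vehicle and 5 labelled CSF1Ri. All tumours came from adult female C57BL/6J mice whose pancreas had been implanted with syngeneic pancreatic tumour cell lines in Matrigel. Once tumours had formed, chow carrying either vehicle or the inhibitor was given for 8 days, the mice were perfused with heparinised saline, and the tumours were digested with collagenase before total RNA was extracted. The labels name neither the inhibitor, its dose nor the cell lines, and both groups carry the implanted tumour. Vehicle 1, Vehicle 3 and CSF1Ri 1 were each hybridised a second time, and their arrays were averaged, so that the tumour is the replicate. Values below are normalised log2 intensities of 1 probe per gene, and log2 fold changes are given as CSF1Ri minus Vehicle.

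Between 16219 and 17847 probes were detected on an array. The mean deposited intensity ran from 142 to 193 on 6 dimmer arrays and from 224 to 316 on 6 brighter ones; Vehicle 2, CSF1Ri 2 and CSF1Ri 3 lie only in the dimmer set and Vehicle 4, CSF1Ri 4 and CSF1Ri 5 only in the brighter one. Csf1r, the gene of the inhibited receptor, stood at 7.46 ± 0.29 (SD, n = 4) in Vehicle and 6.24 ± 0.32 (SD, n = 5) in CSF1Ri, a log2 fold change of -1.22 (SE 0.19, limma adjusted p = 0.0345) with no overlap of the groups; without Vehicle 2, 3 or 4 or without CSF1Ri 1, 2, 4 or 5 its adjusted p was 0.0905 to 0.142. Markers of other cell types were read beside it. The mean level of 6 macrophage markers was 8.78 to 9.23 in Vehicle and 7.34 to 8.31 in CSF1Ri tumours, with 2 of the 6 past the adjusted threshold. The mean of 7 acinar enzyme genes ran from 10.82 to 12.89 in Vehicle and from 5.83 to 13.21 in CSF1Ri tumours, with 0 of 7 past it. The mean of 7 tumour epithelial markers lay between 11.20 and 11.97 in Vehicle and between 11.36 and 11.97 in CSF1Ri, while Epcam was detected on 0 arrays. Vehicle and CSF1Ri ranges of the mean marker level were 7.24 to 10.30 and 6.04 to 8.41 for 8 neutrophil genes, 5.73 to 6.86 and 6.39 to 7.67 for 5 T cell genes, 7.59 to 8.50 and 7.54 to 8.39 for 6 fibroblast genes, and 8.45 to 11.47 and 8.19 to 10.61 for 5 erythroid genes. Of 8 striated muscle markers, Acta1, Ckm, Myh1, Myh4 and Tnnt3 were detected on 0 arrays, Actn3 on 1 Vehicle and 1 CSF1Ri array and Mb on 2 and 1. Tnni2 was detected on all 12 arrays, at 6.59 to 7.22 in Vehicle and 6.38 to 7.51 in CSF1Ri tumours. Of 6 adipocyte genes on the array, Ucp1, Adipoq, Plin1 and Fabp4 were detected on 0 arrays, Cidea on 5 Vehicle and 6 CSF1Ri arrays and Lep on 3 and 4, and the mean of Cidea and Lep was 4.62 to 5.33 in Vehicle and 4.99 to 5.65 in CSF1Ri tumours. In whole tumours, fewer cells of a type and less RNA per cell cannot be told apart, and the part of these cell types in the values below was not tested.

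Promoter sequences are shown for the 4 genes whose difference between the groups had the smallest p among the members, none of which passed the adjusted threshold. Each is the stretch of 250 bases before the gene's start from RefSeq on GRCm38.p6, written 5′ to 3′ along the gene. Uqcrh lies at chr4:116075071-116075320, Uqcr10 at chr11:4704345-4704594, Uqcr11 at chr10:80406822-80407071 and Atp5g3 at chr2:73911327-73911576, all on the minus strand. Capitals mark a match to 1 of the 5 motifs named below. The matches are a GABPA motif in Uqcrh and Uqcr11 and an ESRRA motif in Atp5g3, and Uqcr10 has none.
Uqcrh: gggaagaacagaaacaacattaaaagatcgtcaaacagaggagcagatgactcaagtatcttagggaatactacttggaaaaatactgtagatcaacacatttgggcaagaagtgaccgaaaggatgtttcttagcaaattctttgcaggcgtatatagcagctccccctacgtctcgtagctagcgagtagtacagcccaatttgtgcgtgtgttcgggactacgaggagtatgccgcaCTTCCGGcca
Uqcr10: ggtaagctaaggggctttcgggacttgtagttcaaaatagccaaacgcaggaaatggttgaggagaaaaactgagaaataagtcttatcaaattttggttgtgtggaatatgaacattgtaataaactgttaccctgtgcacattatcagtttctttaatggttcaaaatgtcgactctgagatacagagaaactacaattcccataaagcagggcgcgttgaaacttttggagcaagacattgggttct
Uqcr11: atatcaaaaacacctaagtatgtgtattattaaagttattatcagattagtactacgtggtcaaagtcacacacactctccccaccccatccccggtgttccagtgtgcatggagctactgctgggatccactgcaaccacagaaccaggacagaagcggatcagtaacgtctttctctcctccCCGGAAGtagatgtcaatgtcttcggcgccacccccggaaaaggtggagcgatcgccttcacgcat
Atp5g3: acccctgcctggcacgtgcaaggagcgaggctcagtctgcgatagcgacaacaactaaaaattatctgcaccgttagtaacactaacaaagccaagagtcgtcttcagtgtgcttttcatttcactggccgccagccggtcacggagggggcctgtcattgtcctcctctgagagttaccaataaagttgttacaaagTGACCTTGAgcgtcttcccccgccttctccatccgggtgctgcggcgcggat

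The motifs searched on both strands were GCGCA followed by any base and GCGC (NRF1), CCGGAAG (GABPA), TCAAGGTCA (ESRRA), AAGATGGCG (YY1) and TATAAA (the TATA box). NRF1, GABPA, ESRRA and YY1 are transcription factors known for binding promoters of nuclear mitochondrial genes. An entry was found for 64 of the 78 genes. The NRF1 motif stood in 12 of the 64 promoters (18.8%), against 4.23% of the promoters of all 27025 genes in the table. Among tested genes with an entry it stood in 9 of 56 subunit genes (16.1%) and in 8.92% of all 7915. The GABPA motif stood in 12 of 64 (18.8%), against 7.83% of all genes, and among tested genes in 12 of 56 (21.4%), against 15.3%. Complex V had each of these motifs in 4 of its 14 promoters, and complex III had NRF1 in 0 of 5 and GABPA in 2 of 5. ESRRA and YY1 motifs were found in 1 promoter each (1.56%), against 0.422% and 0.71% of all genes, and among tested genes in 1.79% each, against 0.291% and 1.35%. The TATA box was found in 7 (10.9%), against 14.3% of all genes, and among tested genes in 5 of 56 (8.93%), against 8.58%. These matches describe letters in a window and say nothing of whether a factor binds there.

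The comparison asks how the subunit genes stood after 8 days of CSF1R inhibition. Of the 78 genes, 67 had a probe detected in at least 4 tumours and were tested, with 32 in complex I, 3 in complex II, 6 in complex III, 12 in complex IV and 14 in complex V. No subunit gene passed limma's Benjamini-Hochberg threshold: 0 of 67, where 0.215% of all 9788 tested genes were called, all of them lower in CSF1Ri. The smallest adjusted p was 0.542, for Uqcrh. At an unadjusted p under 0.05, 2 members were lower (Uqcrh and Uqcr10) and 0 higher, where 7.53% of all genes passed (3.8% lower and 3.73% higher). The groups did not overlap for 2 members, Uqcr10 and Atp5g3, both lower in CSF1Ri, beside 2.88% of all genes in either direction (1.42% lower and 1.46% higher).

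The fold changes were small and leaned one way. Of the 67 tested genes, 58 (86.6%) had a negative log2 fold change, against 47.0% of all tested genes, and the median was -0.10, or 1.08-fold lower, against 0.01 over all genes. The median was -0.10 in complex I (26 of 32 negative), -0.02 in complex II (3 of 3), -0.20 in complex III (6 of 6), -0.10 in complex IV (12 of 12) and -0.10 in complex V (11 of 14). Single genes ran from -0.39 for Atp5e to 0.20 for Ndufb11, and the 95% interval lay within a 2-fold change in either direction for 66 of 67 genes and within 1.5-fold for 58. The exception to the 2-fold bound was Atp5a1, whose interval reached down to -1.04. Cox6b2, detected on 6 Vehicle and 2 CSF1Ri arrays, met the detection filter through its Vehicle tumours and is counted as negative. Of the 64 members detected in all 9 tumours, 55 were negative, with a median of -0.10. The genes share the same tumours and vary together, so these counts are no test of a shift.

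**Figure D1:**
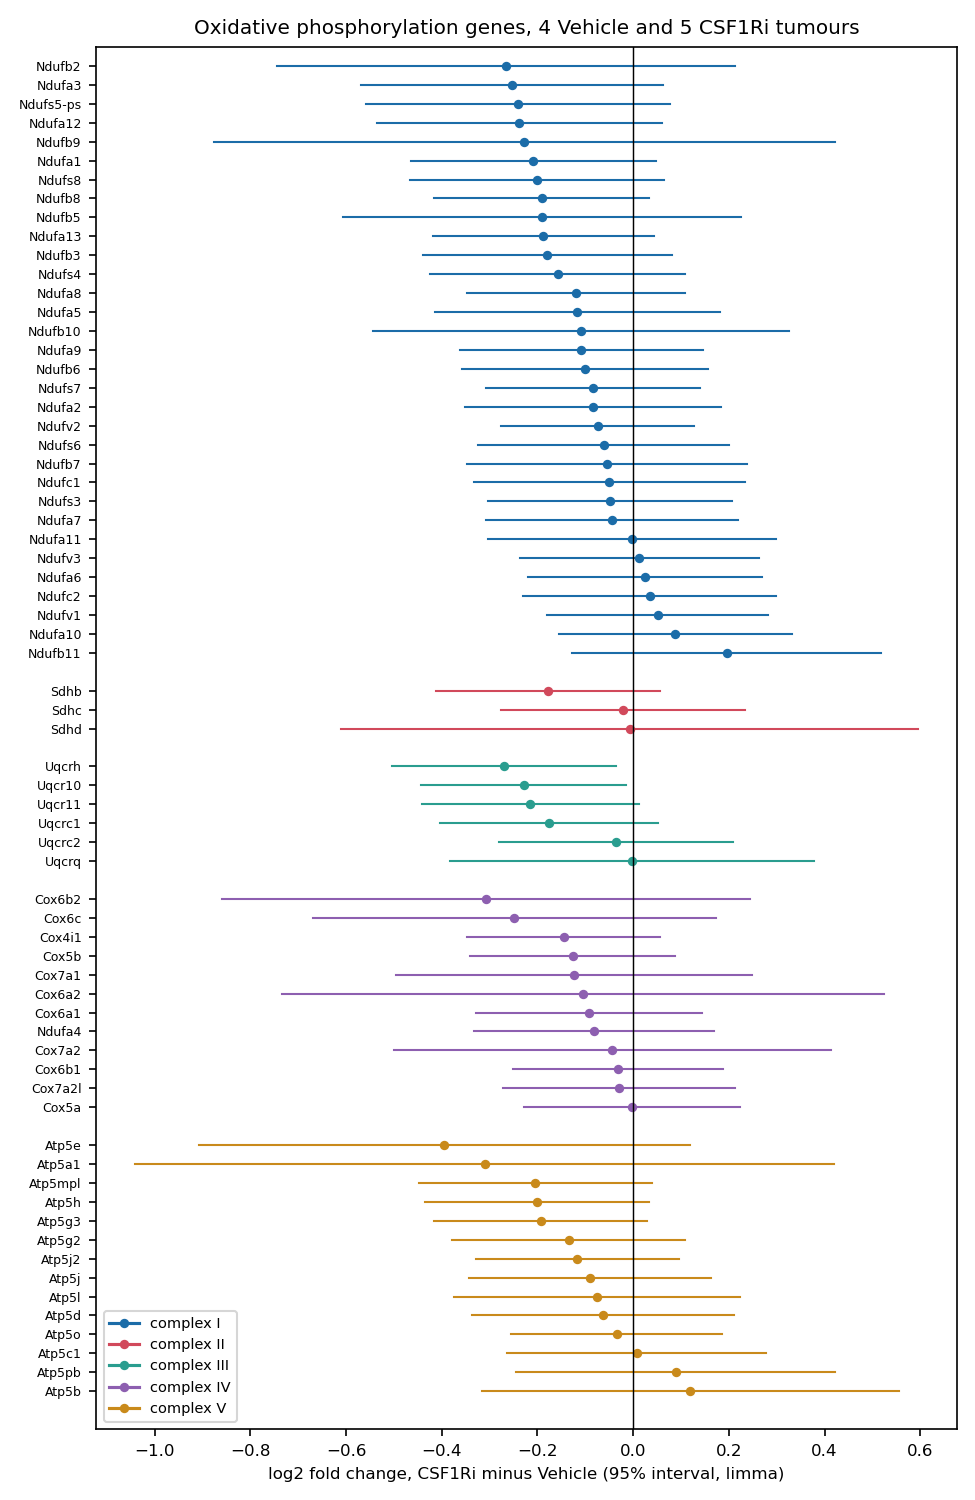
Log2 fold change (CSF1Ri minus Vehicle) of the 67 tested genes with limma's 95% interval, grouped and coloured by complex. Most points lie left of 0, and of all intervals only those of Uqcrh and Uqcr10 lie wholly below it.

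Among complex III genes, Uqcrh encodes the hinge protein that contacts cytochrome c1. Its values were 12.51, 12.44, 12.54 and 12.53 in Vehicle 1 to 4 and 12.23, 12.28, 12.45, 12.03 and 12.17 in CSF1Ri 1 to 5. Vehicle tumours lay close together, and CSF1Ri 3 reached into their range while CSF1Ri 4 was the lowest. Uqcrh thus had a log2 fold change of -0.27 (SE 0.11, 95% interval -0.50 to -0.04, limma adjusted p = 0.542).

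Uqcr10, a small subunit of complex III, read 12.50, 12.68, 12.67 and 12.47 in Vehicle and 12.37, 12.42, 12.42, 12.26 and 12.29 in CSF1Ri tumours. Every Vehicle tumour lay above every CSF1Ri tumour. A log2 fold change of -0.23 resulted (SE 0.10, interval -0.44 to -0.01, limma adjusted p = 0.617), and a second kept probe of Uqcr10 gave -0.18. Uqcr11, another small subunit, read 11.55, 11.70, 11.75 and 11.60 in Vehicle and 11.39, 11.50, 11.61, 11.34 and 11.33 in CSF1Ri. CSF1Ri 3 again overlapped the Vehicle tumours. Its log2 fold change was -0.21 (SE 0.10, limma adjusted p = 0.693).

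The core proteins of complex III had log2 fold changes nearer 0 than Uqcrh, Uqcr10 and Uqcr11, with intervals that overlap theirs. Genes were not tested against each other. Uqcrc1 had a log2 fold change of -0.18 (interval -0.40 to 0.05, limma adjusted p = 0.798) and Uqcrc2 of -0.04 (interval -0.28 to 0.21, limma adjusted p = 0.986). Uqcrq, a small subunit, stood at 5.51 ± 0.32 in Vehicle and 5.51 ± 0.23 in CSF1Ri (SD, n = 4 and 5). Both probes of Uqcrfs1, the Rieske iron-sulphur protein, were detected on 0 arrays, so this catalytic subunit was not compared.

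Taken per tumour, the median deviation of the 6 complex III genes from each gene's mean over the 9 tumours was 0.06, 0.19, 0.15 and 0.02 in Vehicle 1 to 4 and -0.09, -0.03, 0.00, -0.15 and -0.17 in CSF1Ri 1 to 5. All Vehicle values were above all CSF1Ri values, though Vehicle 4 and CSF1Ri 3 lay next to each other. In complex I the same medians were -0.05, 0.02, 0.13 and 0.14 against -0.02, 0.01, 0.07, -0.10 and -0.13, and the groups overlapped. Medians over all tested genes stayed between -0.02 and 0.03.

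**Figure D2:**
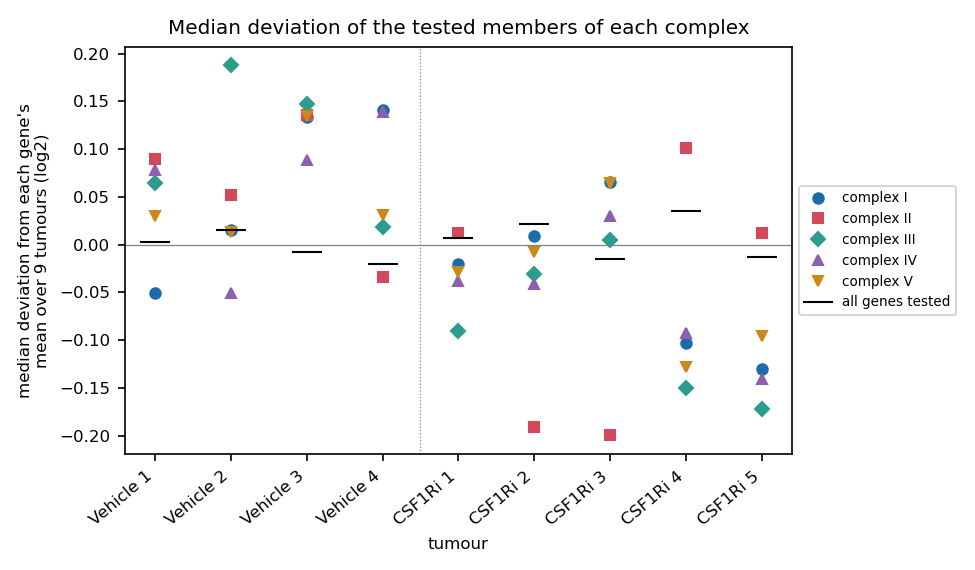
Median deviation (log2) of the tested genes of each complex from their mean over the 9 tumours, by tumour, with the same median over all genes as a bar. CSF1Ri 4 and CSF1Ri 5 lie below 0 for complexes I, III, IV and V, while complex II, which rests on 3 genes, is above 0 in both.

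Over all 67 genes the per-tumour median was -0.00, 0.02, 0.13 and 0.09 in Vehicle and -0.03, -0.02, 0.05, -0.10 and -0.13 in CSF1Ri tumours. Vehicle 3 and Vehicle 4 were highest, CSF1Ri 4 and CSF1Ri 5 lowest, and CSF1Ri 3 lay above Vehicle 1 and Vehicle 2. Vehicle 3 held the highest value for 20 genes and Vehicle 4 for 17, and CSF1Ri 5 held the lowest for 18 and CSF1Ri 4 for 15. A Vehicle tumour was highest for 47 of 67 genes (38.6% of all tested genes) and a CSF1Ri tumour lowest for 53 of 67 (56.5% of all). CSF1Ri 5 had the highest acinar mean (13.21) and a macrophage mean of 7.49, and CSF1Ri 4 had an acinar mean of 8.81 and a macrophage mean of 7.34; their part in these values was not tested.

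In complex I, Ndufv1 carries the FMN that takes electrons from NADH. It read 11.84, 11.76, 11.84 and 11.59 in Vehicle and 11.85, 11.96, 11.65, 11.78 and 11.81 in CSF1Ri tumours, with the groups overlapping across most of their range. Its log2 fold change was 0.05 (interval -0.18 to 0.28, limma adjusted p = 0.975). Ndufs1, the iron-sulphur subunit next to it in the electron path, was detected on 0 arrays. Ndufs7 and Ndufs8, core iron-sulphur subunits on the way to the quinone site, had log2 fold changes of -0.08 and -0.20 (limma adjusted p = 0.952 and 0.807).

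The complex I genes with the smallest p were accessory subunits. Ndufb8, a membrane-arm subunit, read 12.19, 12.13, 12.30 and 11.93 in Vehicle and 11.92, 11.92, 11.98, 12.01 and 11.90 in CSF1Ri. Vehicle 4 lay inside the CSF1Ri range, and the other Vehicle tumours above it. Ndufb8 had a log2 fold change of -0.19 (interval -0.42 to 0.03, limma adjusted p = 0.745). Ndufa13, also known as Grim19, stood at 12.47 ± 0.15 in Vehicle and 12.29 ± 0.08 in CSF1Ri, and Ndufa1 at 10.71 ± 0.13 and 10.50 ± 0.16 (SD, n = 4 and 5), each with a limma adjusted p of 0.766. In the other direction, Ndufb11 had 0.20 (interval -0.13 to 0.52, limma adjusted p = 0.886) and Ndufa10 had 0.09 (limma adjusted p = 0.952). Ndufs5-ps had -0.24 (limma adjusted p = 0.807); whether its probe also binds transcripts of the parent gene was not tested.

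Complex II, succinate dehydrogenase, is shared with the tricarboxylic acid cycle. Its iron-sulphur subunit Sdhb read 8.97, 8.93, 9.16 and 8.84 in Vehicle and 8.89, 8.69, 8.68, 8.85 and 8.89 in CSF1Ri. CSF1Ri 2 and CSF1Ri 3 were lowest and the groups overlapped. The log2 fold change was -0.18 (SE 0.11, interval -0.41 to 0.06, limma adjusted p = 0.807), and its second kept probe gave -0.23. The membrane anchors Sdhc and Sdhd had -0.02 (interval -0.28 to 0.23) and -0.01 (interval -0.61 to 0.60), with limma adjusted p = 0.991 and 1. Sdha, the flavoprotein that oxidises succinate, was detected on 0 arrays.

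Complex IV, cytochrome c oxidase, has isoforms that differ between tissues. Cox4i1, the ubiquitous isoform of regulatory subunit 4, read 13.08, 12.97, 13.09 and 13.11 in Vehicle and 12.85, 12.92, 13.03, 12.86 and 12.93 in CSF1Ri tumours. CSF1Ri 3 lay above Vehicle 2 and the other CSF1Ri tumours below all Vehicle tumours. For Cox4i1 the log2 fold change was -0.14 (SE 0.09, interval -0.35 to 0.06, limma adjusted p = 0.836). The structural subunits Cox5a, Cox5b and Cox6c had -0.00, -0.13 and -0.25 (limma adjusted p = 1, 0.888 and 0.888).

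Isoforms known from other tissues were dim or below detection, and the ubiquitous isoform Cox7a2 was dim too. Cox7b2 and Cox8c of testis and Cox8b of heart and muscle were detected on 0 arrays, and Cox4i2, the second isoform of subunit 4, on 1. Cox6a2, a heart and muscle isoform, was detected on 4 Vehicle and 4 CSF1Ri arrays and Cox6b2, a testis isoform, on 6 and 2. Their log2 fold changes were -0.10 (interval -0.73 to 0.52) and -0.31 (interval -0.86 to 0.24). Cox6b2 met the detection filter through its Vehicle tumours, where it was higher, so the filter itself favours its negative sign. It is counted among the negative genes of complex IV and among the negative dim genes. Cox7a1, the heart and muscle isoform of subunit 7a, stood at 6.00 ± 0.09 in Vehicle and 5.88 ± 0.34 in CSF1Ri (SD, n = 4 and 5). Cox7a2 stood at 6.26 ± 0.46 and 6.22 ± 0.22 (SD, n = 4 and 5). Of the ubiquitous isoforms, Cox6a1 had a log2 fold change of -0.09 and Cox7a2 of -0.04. Cox7a2l, a relative of subunit 7a, had -0.03. Ndufa4 had -0.08 (interval -0.33 to 0.17, limma adjusted p = 0.96). Cox8a and Ndufa4l2 were not analysed here.

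In complex V, Atp5g3 encodes the c subunit of the proton-driven ring. It read 13.07, 13.07, 13.06 and 13.17 in Vehicle and 12.76, 13.03, 12.99, 12.95 and 12.77 in CSF1Ri tumours. No CSF1Ri tumour reached the lowest Vehicle tumour, and CSF1Ri 1 and CSF1Ri 5 lay furthest below. The log2 fold change was -0.19 (SE 0.10, interval -0.42 to 0.03, limma adjusted p = 0.732). Atp5g2, another gene for the same protein, had -0.13 (limma adjusted p = 0.903), and Atp5g1 was not analysed here.

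Genes of the catalytic head had log2 fold changes of either sign. Atp5b, the catalytic beta subunit, read 13.376, 13.545, 13.648 and 13.657 in Vehicle and 14.004, 13.869, 13.692, 13.853 and 12.962 in CSF1Ri. CSF1Ri 1 to 4 lay above all Vehicle tumours and CSF1Ri 5 below them all. The log2 fold change was 0.12 (SE 0.20, interval -0.32 to 0.56, limma adjusted p = 0.967). Atp5a1, the alpha subunit, read 7.60, 6.91, 6.96 and 8.16 in Vehicle and 6.98, 6.93, 6.35, 7.34 and 7.90 in CSF1Ri, with Vehicle 4 and CSF1Ri 5 high and CSF1Ri 3 low. Its log2 fold change was -0.31 (SE 0.33, limma adjusted p = 0.94), and that of Atp5c1, the gamma subunit of the central stalk, was 0.01 (interval -0.26 to 0.28).

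Stalk and membrane subunits of complex V made up its other small p values. Atp5h, subunit d of the peripheral stalk, stood at 10.06 ± 0.14 in Vehicle and 9.85 ± 0.10 in CSF1Ri (SD, n = 4 and 5; limma adjusted p = 0.742). Atp5mpl, a small membrane protein of the enzyme, stood at 11.60 ± 0.10 and 11.39 ± 0.15 (limma adjusted p = 0.755). Atpif1, the inhibitor that binds the ATP synthase and falls outside the symbol rule, had a log2 fold change of -0.19 (limma adjusted p = 0.761).

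**Figure D3:**
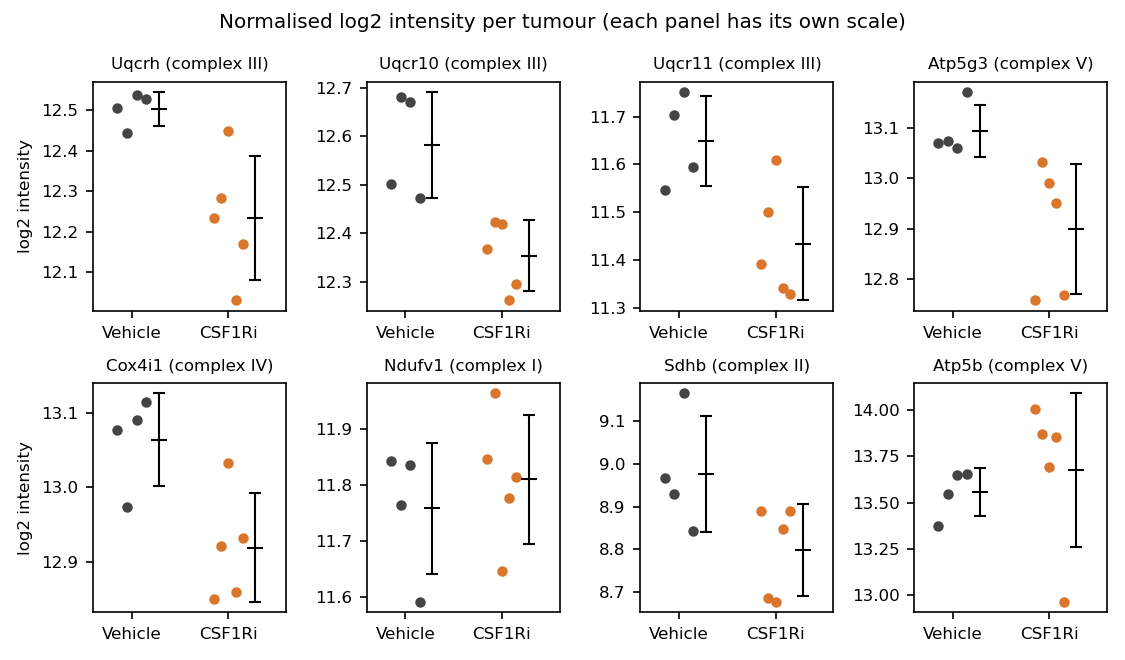
Normalised log2 intensity of 8 genes in each tumour (points), with the mean and SD of 4 Vehicle and 5 CSF1Ri tumours beside them; each panel has its own scale, which does not start at 0. The groups do not overlap for Uqcr10 and Atp5g3, and CSF1Ri 5 stands below all other tumours for Atp5b.

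The spread over the 9 tumours differed widely between genes. It was smallest for Ndufv2 (0.22), Cox6b1 (0.25) and Cox4i1 (0.26) and largest for Atp5a1 (1.81), Atp5e (1.46) and Ndufb9 (1.41). The 3 genes with the largest spread also differed between hybridisations: the second array read higher than the first in Vehicle 1, Vehicle 3 and CSF1Ri 1 by 0.74, 0.86 and 1.31 for Atp5a1, by 1.03, 1.08 and 0.57 for Atp5e and by 0.56, 1.06 and 1.07 for Ndufb9. These 3 (4.48% of the tested subunit genes) were the only ones with a difference above 0.5 in all 3 tumours, where 0.848% of all tested genes had one. In Vehicle 1, Vehicle 3 and CSF1Ri 1 the first array lay in the dimmer set and the second in the brighter set. Order of hybridisation and array brightness therefore cannot be told apart.

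Brightness split the subunit genes. For the 15 with a mean log2 intensity under 9, the median second-minus-first difference was 0.26, 0.19 and 0.38 in the 3 tumours. Over all 7286 tested genes this dim it was -0.01, -0.04 and -0.04. Quantile normalisation gives every array the same distribution and keeps a median over this many genes near 0. These medians therefore cannot show whether dim genes in general differed between hybridisations. A difference above 0.5 in all 3 tumours was found for 20% of the 15, against 0.988% of all genes this dim. Of the 52 brighter subunit genes 0 had one. The share over all tested genes, 0.848%, takes in dim genes and is not matched to this brightness. Per tumour, the 15 dim genes had median deviations of 0.31 in Vehicle 4, 0.03 in CSF1Ri 4 and 0.16 in CSF1Ri 5, all hybridised only in the brighter set, and of -0.14 in Vehicle 2, -0.31 in CSF1Ri 2 and -0.17 in CSF1Ri 3, all only in the dimmer set. Negative log2 fold changes were found for 44 of the 52 brighter genes (median -0.09, against 0.02 for all 2502 genes this bright) and for 14 of the 15 dim ones (median -0.12, against 0.01). In a fit of the 12 arrays with tumour as a random block and array brightness as a term, the median over the 67 genes was -0.10. The dimmer arrays alone gave -0.08 and the brighter ones -0.15, and 0 subunit genes were called in each of these fits.

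**Figure D4:**
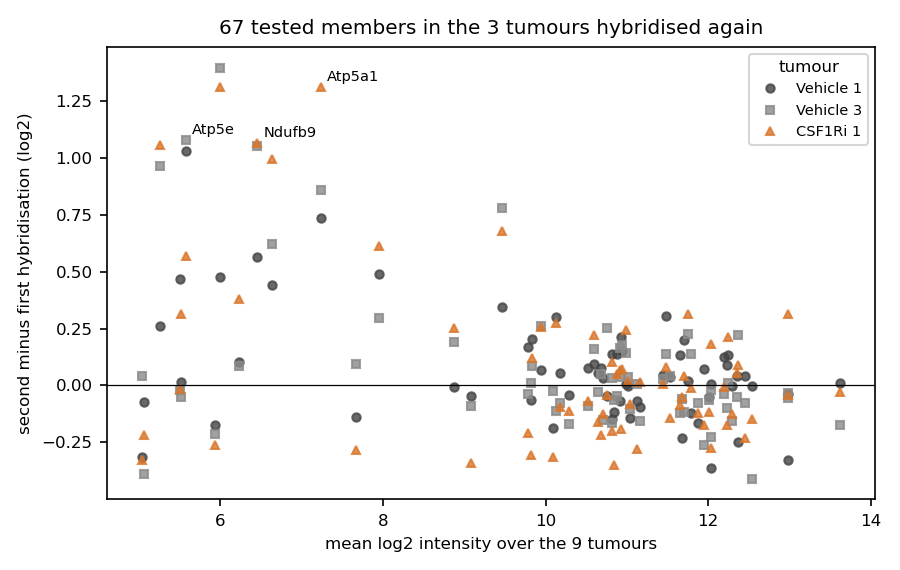
Difference between the second and the first array (log2) of Vehicle 1, Vehicle 3 and CSF1Ri 1 against each gene's mean log2 intensity, for the 67 tested genes. Differences over 0.5 lie almost wholly among genes with a mean under 9, and Atp5a1, Atp5e and Ndufb9 pass it in all 3 tumours.

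How the genes varied together was described after the group means were removed, across 9 tumours that share arrays and normalisation. The median correlation between pairs was 0.14 over all 67 genes, against 0.01 over all tested genes. Over the 52 brighter ones it was 0.27, against 0.02 over all genes this bright, and over the 15 dim ones 0.19. The same median was 0.26 within complex III, 0.18 within complex I, 0.13 within complex IV and -0.00 within complex V. Of 17 genes with several kept probes, 3 (Atp5o, Ndufa8 and Ndufs6) had probes of opposite sign, none of them more than 0.5 apart. A second probe of Ndufb6 gave -0.49 where the brightest gave -0.10, and neither passed the adjusted threshold.

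In all, 11 of the 78 genes were not compared, for want of a probe detected in 4 tumours or more. Besides those named above, these were Cox7b, the ubiquitous isoform of subunit 7b, and Ndufb4, an accessory subunit of complex I, each detected in 3 tumours, and Atp5k and Atp5md, membrane proteins of the ATP synthase, whose probes were detected in 0 or 1.

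Other mitochondrial gene lists were set beside the subunits, and 0 of their genes passed limma's adjusted threshold. The median log2 fold change was 0.01 over 12 complex I assembly factors, -0.06 over 25 assembly factors of complexes II to V, 0.02 over 13 subunits and carriers outside the symbol rule, -0.06 over 15 tricarboxylic acid cycle genes, 0.00 over 14 biogenesis regulators, 0.03 over 16 import and cristae genes, -0.03 over 11 beta-oxidation genes and 0.05 over 7 antioxidant and uncoupling genes. At an unadjusted p under 0.05 these lists held 1 gene lower (Cox20) and 1 higher (Acadl), where 3.8% of all tested genes were lower and 3.73% higher. Cox20, a chaperone of complex IV assembly, had -0.35 (limma adjusted p = 0.642).

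Acadl, the long-chain acyl-CoA dehydrogenase, read 6.83, 6.55, 6.68 and 6.81 in Vehicle and 7.08, 6.90, 6.89, 7.26 and 7.26 in CSF1Ri. All CSF1Ri tumours lay above all Vehicle tumours. Its log2 fold change was 0.36 (interval 0.09 to 0.63, limma adjusted p = 0.446), while Acaa2, which cleaves acetyl-CoA off in the last step, had 0.11. Groups that did not overlap were also found for Immt of the cristae junction, lower at -0.21 (limma adjusted p = 0.773), and Taco1, which activates translation of a complex IV subunit, higher at 0.22 (limma adjusted p = 0.782). Over all tested genes 1.42% did not overlap and were lower, and 1.46% higher. Taco1 stood at 4.76 ± 0.04 in Vehicle and 4.97 ± 0.22 in CSF1Ri (SD, n = 4 and 5). This is near the lowest detected signal of an array, which ran from 4.71 to 4.87.

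The remaining genes with the smallest p of each list lay within overlapping groups. Ndufaf5 and Ndufaf3, which assemble complex I, had -0.21 and -0.34, and Dlst and Ogdh of the 2-oxoglutarate dehydrogenase had -0.22 and -0.24. Etfa and Etfdh, which feed electrons from fatty acids to ubiquinone, had 0.15 and -0.15, and Tomm40, the outer membrane import channel, had -0.28. Gabpb1, partner of GABPA, had 0.25, Polg, the mitochondrial DNA polymerase, -0.18, and the peroxidases Gpx4 and Gpx1 had -0.10 and -0.13. The limma adjusted p of these genes ran from 0.735 to 0.939.

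Subunits encoded in mitochondrial DNA gave 6 tested genes of 8 on the array, with a median of 0.10 and 5 of 6 positive. ND5, a proton-pumping subunit of complex I, read 7.31, 7.30, 7.53 and 7.68 in Vehicle and 8.36, 7.61, 8.03, 8.38 and 8.62 in CSF1Ri tumours. CSF1Ri 2 alone lay inside the Vehicle range. The log2 fold change was 0.75 (SE 0.19, interval 0.32 to 1.18, limma adjusted p = 0.245). A fit of the 12 arrays with tumour as a random block gave 0.76 (limma adjusted p = 0.184). With array brightness added to that fit as a term, the limma adjusted p was 0.0211 at a log2 fold change of 0.76. On the dimmer arrays alone the log2 fold change was 0.64 (limma adjusted p = 0.553) and on the brighter ones 0.93 (limma adjusted p = 0.0982).

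The other mitochondrially encoded genes differed little between the groups: CYTB had 0.11, ATP6 0.15, ND1 0.09, ND4 0.04 and COX2 -0.00. Several differed between hybridisations. The second array read higher in Vehicle 1, Vehicle 3 and CSF1Ri 1 by 0.78, 1.34 and 1.14 for ATP6, by 0.83, 1.16 and 1.26 for COX2, by 0.42, 0.72 and 1.10 for ND1 and by 0.23, 0.43 and 0.53 for ND5. The differences were 0.37, 0.13 and -0.02 for CYTB and 0.04, -0.04 and -0.14 for ND4.

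**Figure D5:**
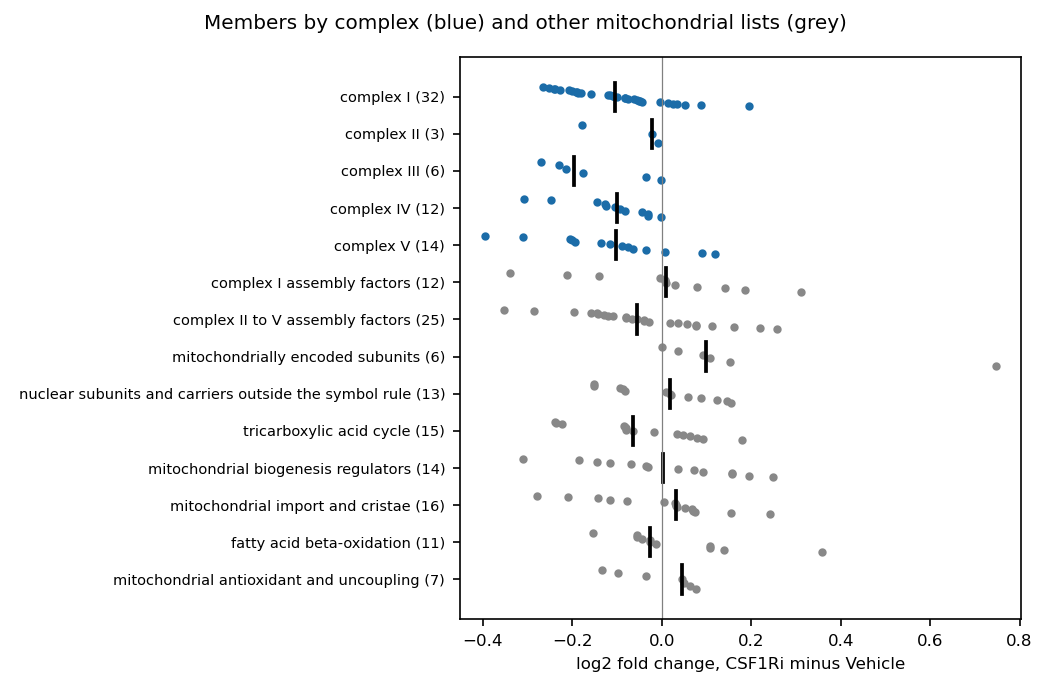
Log2 fold changes (CSF1Ri minus Vehicle) of the tested subunit genes by complex (blue) and of other mitochondrial lists (grey), with the number of genes in brackets and the median as a bar. The medians of complexes I, III, IV and V lie between -0.20 and -0.10, and ND5 stands apart at 0.75.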

How the data were processed

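Whole tumours were measured on Illumina BeadArrays. On each of 12 arrays, 45281 probes have an intensity and a detection p-value, as the authors deposited them per the file headers; the intensity falls below 0 and was not scaled between arrays. A further table the authors deposited holds the same intensity times 1 factor per array. Scanning and background correction used software not given in the sources used here. Probes were named from the platform annotation, which gave 34885 of them 1 symbol, 18 several and 10378 none.

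With limma 3.58.1 in R 4.3.3, neqc modelled the background from the detection p-values, added an offset of 16, applied quantile normalisation and took log2. Arrays of a tumour were averaged. Probes with detection p-values under 0.05 on all arrays of a tumour, in 4 or more tumours, were kept (16606 probes, 14378 with 1 symbol), and the brightest kept probe stood for a gene, which gave 9788 genes. Groups, 4 Vehicle and 5 CSF1Ri, came from the treatment label, and lmFit and eBayes compared them without covariates, with Benjamini-Hochberg adjustment over all 9788 genes. The offset understates fold changes of dim genes, and the number of arrays limits the precision. The titles number repeats without saying that each is a separate animal, so p-values measure the spread between these tumours. Scripts were tested on simulated data.

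Genes named in the text were core subunits, the 3 smallest p of complexes I, III, IV and V, isoforms and regulators, members whose groups did not overlap, members whose probes disagreed, and the 2 smallest p of every other list. Ndufs7, Ndufs8, Ndufb11, Ndufa10, Ndufs5-ps, Uqcrq, Atp5e, Ndufv2, Cox6b1, Ndufb9, Atp5o, Ndufa8, Ndufs6, Ndufb6, the untested members and all mitochondrially encoded genes were added after their values were seen. The members and lists were chosen with earlier results of these data known. Alternatives covered background, normalisation, detection filter, probe choice, second hybridisations, brightness, the replicate number as a block and leaving out each tumour.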

Additional observations from a re-analysis of the deposited data

Results flagged for a closer look

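Single tumours stood apart from the rest of their group in 6 of 112 groups of values checked by Dixon's test, and chance flags about 1 group in 20. Vehicle 4 had 13.17 for Atp5g3, above the other Vehicle tumours (13.06 to 13.07), and 13.29 for Gpx1, below them (13.45 to 13.48). CSF1Ri 5 had 7.10 for Ndufaf5, below the other CSF1Ri tumours (7.36 to 7.47), and 12.79 for Atpif1, below 13.02 to 13.09. CSF1Ri 3 had 9.69 for Immt, below 10.06 to 10.16. The median deviation of complex V was 0.13 in Vehicle 3, above 0.01 to 0.03 in the other Vehicle tumours.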

How the results depend on the processing

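No subunit gene passed limma's adjusted threshold in any of the 24 alternatives, and the median over the members kept its sign in each, from -0.15 within the brighter arrays to -0.08 within the dimmer ones, and from -0.14 to -0.08 when 1 tumour was left out. The count at an unadjusted p under 0.05 did depend on the setting. From 2 it went to 5 with normexp and an offset of 50, 4 with neqc and an offset of 50, 5 on the authors' values, 5 with cyclic loess, 10 of 78 with no detection filter, 1 without the second hybridisations, 0 on the dimmer and 11 on the brighter arrays, and 6 with a trended robust prior. Leaving out 1 tumour gave 0 (without Vehicle 3 or CSF1Ri 1) to 6 (without CSF1Ri 3), with 4 without Vehicle 1 or CSF1Ri 2 and 1 without CSF1Ri 4. Over all tested genes the share at that threshold was 7.53% in the main fit, 6.35% on the dimmer and 11.1% on the brighter arrays. It was 6.34% with no filter and 7.07% to 7.66% in the other fits of all 9 tumours named here. With 1 tumour left out it ran from 5.85% (without Vehicle 3) to 9.54% (without CSF1Ri 3). The complex II median was -0.14 within the dimmer arrays and -0.14 to -0.019 with 1 tumour left out. The cause of these changes was not tested. Fits on part of the arrays or with 1 tumour left out also held fewer tumours. Csf1r stayed at -1.43 to -0.81 in the alternatives that ended its call: the authors' values (limma adjusted p = 0.108), cyclic loess (0.0522), no filter (0.098), no second hybridisations (0.113), the dimmer arrays (0.639), the replicate block (0.245) and leaving out any tumour other than Vehicle 1 or CSF1Ri 3. ND5 passed the threshold in the fit of 12 arrays with tumour as a random block and the brightness term (limma adjusted p = 0.0211). Calls over all genes, 21 lower and 0 higher in the main fit, went to 41 and 4 over 12 arrays with the tumour as a random block. Adding array brightness as a term to that fit gave 46 and 6. They were 12 and 1 with no filter and 10 and 0 for probes detected in all 9 tumours. They were 11 and 0 on the brighter and 1 and 0 on the dimmer arrays, and 11 to 34 lower with 1 tumour left out.

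With the replicate number as a block, which drops CSF1Ri 5 from the contrast because no Vehicle tumour shares its number, 0 members were called, the members' median was -0.09 and 1 gene in all was called lower. Same-numbered tumours correlated at -0.09, 0.03, 0.12 and 0.34, and none correlated best with its own number, so the numbers were not taken to pair tumours.

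Genes near 0 turned sign. The mitochondrially encoded ATP6 (-0.14 without Vehicle 2), COX2 (0.24 without Vehicle 4), ND1 (-0.15 within the dimmer arrays) and ND4 (-0.071 without CSF1Ri 4) also did. The values below leave these mitochondrially encoded genes out. Sdhd was 0.0063 with normexp and 0.0049 with neqc at an offset of 50, 0.094 without the second hybridisations, 0.00076 with the tumour as a random block and 0.175 within the brighter arrays. Atp5c1 was -0.017 on the authors' values, -0.022 with cyclic loess, -0.024 without second hybridisations, -0.015 with the random block, -0.0088 with the brightness term, -0.10 within the dimmer and -0.0073 for the brighter arrays. Cox6a2 was 0.043 on the authors' values, 0.021 within the dimmer and 0.090 for the brighter arrays and 0.0027 with the block. Within the dimmer arrays Cox6a1 was 0.022, Cox7a1 0.053 and Cox7a2l 0.020; with the block Cox7a1 was 0.0023 and Sdhc 0.019; within the brighter arrays Taco1 was -0.073 and Acaa2 -0.14. With 1 tumour left out, the ranges that crossed 0 were -0.087 to 0.069 for Atp5c1, -0.057 to 0.043 for Cox5a, -0.28 to 0.071 for Cox6a2, -0.22 to 0.0023 for Cox7a1, -0.26 to 0.070 for Cox7a2, -0.10 to 0.015 for Cox7a2l, -0.0046 to 0.092 for Ndufv1, -0.10 to 0.023 for Sdhc, -0.14 to 0.18 for Sdhd and -0.10 to 0.0011 for Uqcrc2.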

Other observations

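Regulators of mitochondrial gene expression were measured beside their targets. Nrf1 stood at 8.70 ± 0.13 in Vehicle and 8.77 ± 0.15 in CSF1Ri (SD, n = 4 and 5), with a log2 fold change of 0.07 (limma adjusted p = 0.964). Gabpa had 0.09, Esrra -0.03 and Tfam, which packages and transcribes mitochondrial DNA, -0.04 (limma adjusted p = 0.956, 0.988 and 0.981). The coactivators Ppargc1a and Ppargc1b had 0.19 (interval -0.22 to 0.61) and -0.31 (interval -0.88 to 0.25), and Yy1 was detected in too few tumours to be tested. Cytochrome c (Cycs) and cytochrome c1 (Cyc1), the partner of Uqcrh in complex III, each had 0.02 (limma adjusted p = 0.994), and citrate synthase (Cs) had -0.08. These genes were picked after their values were seen.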
